A study of Mus musculus with 20 samples.

Results

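Choroid plexus genes were followed array by array in mouse brain, where cerebellum was set beside forebrain and knock-in animals beside wild-type ones. The set comprised 7 genes, Ttr, Folr1, Clic6, Enpp2, Kl, Sostdc1 and Otx2, and every probe set that the array annotation assigns to 1 of them. It came to 9 probe sets for 5 of the genes, of 22690 probe sets and 12393 named genes on the array: 3 for Ttr, 2 each for Kl and Sostdc1, and 1 each for Folr1 and Otx2. Clic6 and Enpp2 are not analysed here. A probe set was tested where its intensity lay above the 40th percentile of its array, called the filter limit below (605.5 to 774.8 over the arrays), on at least 2 of the 20 arrays. This kept 7 of the 9 probe sets and all 5 genes. The second Kl probe set (1451892_at) and the second Sostdc1 probe set (1460250_at) were not kept and are given as values only.

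Total RNA had been measured on 20 single-channel arrays, with 2 arrays per group at 11 weeks and 3 per group at 4 weeks. The 8 groups were knock-in cerebellum, wild-type cerebellum, knock-in forebrain and wild-type forebrain, each at 11 weeks and at 4 weeks. The later age is 11 weeks in the descriptions and 12 weeks in the titles. The labels name neither the knocked-in allele, the strain, the sex nor how the tissue was cut, and do not say whether arrays are separate mice. The p-values therefore rest on a spread between samples that may be technical. Groups follow the code in each title. For 7 of the 10 forebrain arrays the source field names cerebellum, and for 1 of them, knock-in forebrain 4 weeks replicate 3, the description does so too. The Purkinje and granule neuron lists went with the code. The summed intensity of 6 measured Purkinje genes was 207347 to 268966 on the cerebellar arrays and 36737 to 59819 on the forebrain arrays. That of 7 granule neuron genes was 187611 to 222380 and 14602 to 20570. The sum of 6 forebrain neuron genes was 10132 to 14334 on cerebellar and 17366 to 29737.5 on forebrain arrays. By gene this list was mixed, with 4 lower and 2 higher in cerebellum.

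The choroid plexus is a vascular fringe inside the brain ventricles whose epithelium secretes cerebrospinal fluid. Its messenger RNAs are so abundant there that a small fragment left on a dissected block can add to a bulk measurement, and the plexus lies both in the lateral ventricles, inside the forebrain, and in the fourth ventricle, under the cerebellum. Otx2 is a homeodomain transcription factor needed to form and keep the epithelium. Ttr encodes transthyretin, the carrier of thyroid hormone and retinol that the epithelium secretes. Folr1 encodes the folate receptor that moves folate into the fluid. Kl encodes klotho, a co-receptor of FGF23 that is also made in some neurons, Purkinje cells among them. Sostdc1 encodes a secreted antagonist of BMP and Wnt signals. In whole-tissue RNA, fewer cells of a type and less RNA per cell cannot be told apart.

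All 7 tested probe sets were higher in cerebellum than in forebrain. Those of Kl, Sostdc1 and Otx2 lay above the filter limit on 9, 9 and 8 cerebellar arrays and on 0 forebrain arrays, so they entered the test only through the region where they are high, and the count of 7 is a description. Without the filter, 8 of all 9 probe sets were higher. The mean difference over genotypes and ages, in log2(intensity + 16), ranged from 1.26 for Folr1 to 4.66 for a Ttr probe set, with a median of 4.26. Over the array as a whole, 32.5% of the 15627 tested probe sets were higher in cerebellum, 27.2% were lower, and the median difference was 0.03. By size, the 3 Ttr probe sets ranked 19, 28 and 33 of 15627 from the top, Otx2 ranked 31, Sostdc1 72, Kl 155 and Folr1 581. Each of the 7 was also higher in each genotype and age taken singly, where at 11 weeks 14.1% (knock-in) and 15.9% (wild type), and at 4 weeks 20.3% and 21.7%, of tested probe sets were higher. Wild-type forebrain at 4 weeks is the only forebrain group whose labels all name forebrain. Set against wild-type cerebellum at 4 weeks, in a fit without the other forebrain arrays, all 7 were called again, with differences of 0.82 (Folr1) to 4.74 (Ttr 1451580_a_at), a check added after the data had been seen.

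Ttr was read by 3 probe sets. Probe set 1454608_x_at, whose suffix marks probes that may also bind other transcripts, had the highest mean. In cerebellum it read 97868 and 104928 in knock-in mice and 91963 and 90105.5 in wild-type mice at 11 weeks, and at 4 weeks 39451, 83972 and 82200 in knock-in and 86245, 92964 and 93809 in wild-type mice. In forebrain it read 2949 and 15753 in knock-in mice and 7704 and 1806 in wild-type mice at 11 weeks, and at 4 weeks 1243, 3013 and 9882 in knock-in and 25269, 3636 and 1086 in wild-type mice. The regions did not overlap, and the lowest cerebellar value was 1.56 times the highest forebrain value. The share of all tested probe sets whose regions do not overlap is not given here, so overlap is a description for each gene. The difference was 4.26 ± 0.53 log2 units (SE; limma adjusted p = 3.86e-06). Probe set 1451580_a_at read 44156 to 102031 in cerebellum and 517 to 18771 in forebrain, and 1455913_x_at read 19281 to 55000.2 and 406 to 7959, again without overlap. They gave 4.66 ± 0.51 and 4.40 ± 0.48 (limma adjusted p = 9.59e-07 and 8.79e-07).

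**Figure D1:**
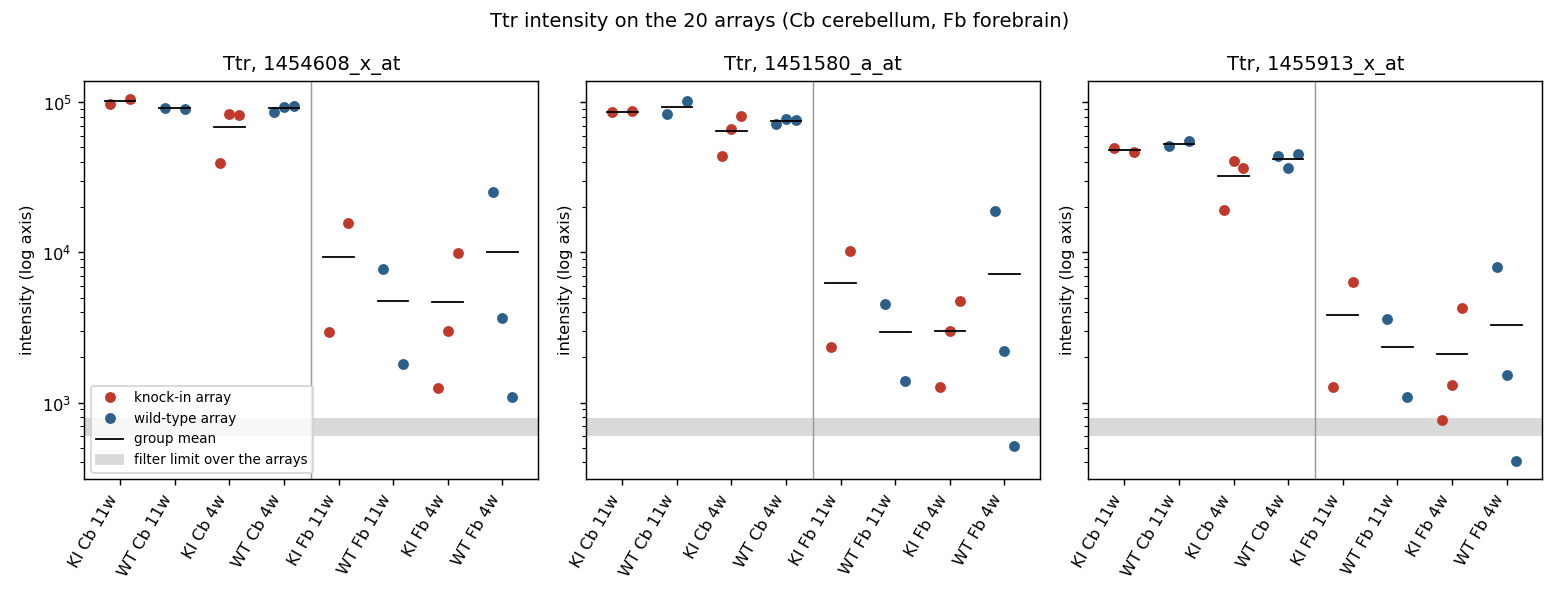
Intensity of the 3 Ttr probe sets (log axis) on each of the 20 arrays, by group, with cerebellum (Cb) left of forebrain (Fb), bars at the group means and the filter limit in grey. Cerebellar arrays lie close together except knock-in 4 weeks replicate 1, while forebrain arrays of 1454608_x_at spread from 1086 to 25269.

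Otx2 was read by 1425926_a_at. It read 1106 and 1048 in knock-in and 823 and 1042 in wild-type cerebellum at 11 weeks, and 542, 886 and 750 in knock-in and 765, 964 and 772 in wild-type cerebellum at 4 weeks. In forebrain it lay between 16.7 and 52.7 on all 10 arrays, far below the filter limit. The regions did not overlap. The difference was 4.33 ± 0.14 log2 units (limma adjusted p = 2.11e-13). Its size depends on the offset, and with the forebrain values raised to the filter limit it was at least 1.25-fold, the smallest such bound of the 7 probe sets. The cerebellar signal is itself dim, above the limit on 8 of 10 arrays.

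Sostdc1 was read by 1449340_at. It read 2092 and 1539 in knock-in and 1345 and 1669 in wild-type cerebellum at 11 weeks, and 268, 917 and 1404 in knock-in and 990 (989.8), 1042 and 1150.4 in wild-type cerebellum at 4 weeks. Forebrain values ran from 31.1 to 571 with a median of 64.6, below the filter limit on 10 of 10 arrays. The regions overlapped for this gene: knock-in cerebellum 4 weeks replicate 1 (268) lay below 3 forebrain arrays, at 571, 407 and 286. The difference was 3.31 ± 0.48 log2 units (limma adjusted p = 1.91e-05), at least 1.63-fold against the filter limit. The untested second probe set read 67.9 to 831 in cerebellum and 29.3 to 232 in forebrain.

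Kl was read by 1423400_at. It read 2584 and 1833 in knock-in and 2207 and 2925 in wild-type cerebellum at 11 weeks, and 549, 959.7 and 1276 in knock-in and 1010.4, 1744 and 1429 in wild-type cerebellum at 4 weeks, against 195 to 406 over the 10 forebrain arrays. The regions did not overlap. The difference was 2.45 ± 0.18 log2 units (limma adjusted p = 6.33e-09), at least 2.18-fold against the filter limit, which no forebrain array passed. The second probe set read 22.2 to 135 in cerebellum and 26.2 to 101 in forebrain, below the limit on all arrays, and showed no such gap.

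Folr1 was read by 1450995_at and had the smallest regional difference. It read 2558 and 1554 in knock-in and 1898 and 2218 in wild-type cerebellum at 11 weeks, and 1222, 1378 and 1741 in knock-in and 1077, 1373 and 1367 in wild-type cerebellum at 4 weeks. Forebrain values ran from 385 to 899.9 with a median of 739, and 6 of 10 lay above the filter limit. The regions did not overlap, by a factor of 1.20 between the lowest cerebellar and highest forebrain array. The difference was 1.26 ± 0.15 log2 units (limma adjusted p = 3.02e-06).

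**Figure D2:**
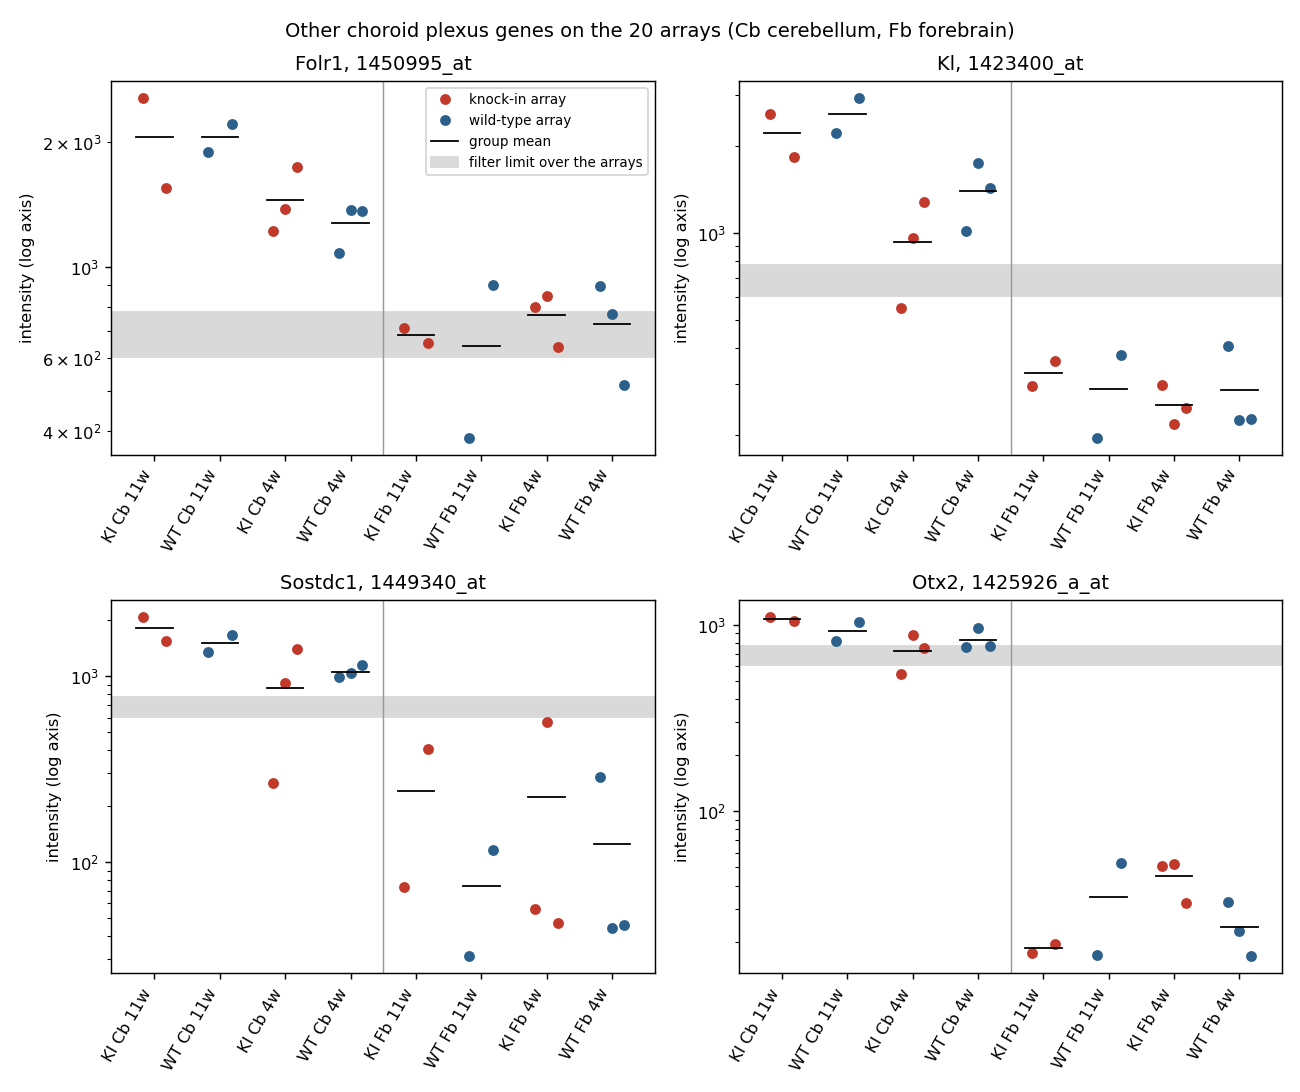
Intensity (log axes, which differ between panels) of Folr1, Kl, Sostdc1 and Otx2 on each array, by group, with bars at the group means and the filter limit in grey. Forebrain readings of Kl, Sostdc1 and Otx2 all lie below the filter limit, and Sostdc1 in forebrain reaches 571 on one knock-in array and 31.1 on a wild-type array.

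Of the set, promoter sequence is shown for Kl and for the transcription factor Otx2 alone, from a RefSeq promoter table (GRCm38.p6, 250 bases before to 50 after a start). Both genes, like the other tested genes of the set, were higher in cerebellum, and Otx2 is itself a DNA-binding member of the set. The letters TAATCC, the core that bicoid-type homeodomain proteins such as Otx2 prefer, were searched on both strands, where the other strand reads GGATTA. They were found in 1 of the 5 windows, at 1 of the 4 Otx2 starts, and are in capitals in it. Of 32851 promoters of the same length, 7.06% hold the letters, so a match is a description and no evidence of binding. The Kl window, at chr5:150952357-150952656 on the plus strand, has none, which says only that these letters are not in this window. The Otx2 window shown is the window with the letters, at chr14:48665060-48665359 on the minus strand.
Kl: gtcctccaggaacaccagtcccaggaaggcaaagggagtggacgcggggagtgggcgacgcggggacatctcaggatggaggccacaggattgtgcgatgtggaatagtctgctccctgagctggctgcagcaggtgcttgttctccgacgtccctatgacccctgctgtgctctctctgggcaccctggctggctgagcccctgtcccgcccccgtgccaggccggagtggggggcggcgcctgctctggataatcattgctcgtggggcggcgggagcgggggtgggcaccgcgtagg
Otx2: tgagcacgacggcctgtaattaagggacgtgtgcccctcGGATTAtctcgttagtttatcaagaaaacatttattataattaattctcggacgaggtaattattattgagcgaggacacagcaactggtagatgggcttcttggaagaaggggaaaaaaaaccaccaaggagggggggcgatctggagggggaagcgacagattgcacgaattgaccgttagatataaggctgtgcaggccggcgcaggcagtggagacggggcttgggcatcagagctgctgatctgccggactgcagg

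A longer list of 38 other choroid plexus genes gave 28 annotated and 22 tested genes, of which 16 were higher and 1 was lower in cerebellum and 5 were not called, where 32.5% of all tested probe sets were higher and 27.2% lower (median 0.63, against 0.03 over all). Many of them are also made elsewhere, as Igf2 is in meninges and Htr2c, a serotonin receptor, in neurons. Of the 6 with the highest mean, 5 were higher: Slc29a4, a monoamine transporter (1.42 ± 0.10), the growth factor Igf2 (0.58 ± 0.08), the kinase adaptor Cab39l (0.50 ± 0.08), the peptidase Ace (0.47 ± 0.16) and the protease inhibitor Spint2 (0.23 ± 0.09; limma adjusted p = 0.0353, but 0.104 with quantile normalization and 0.111 with cyclic loess). Igfbp2 (0.38 ± 0.19; limma adjusted p = 0.1) was not called, but was without knock-in cerebellum 4 weeks replicate 1 (0.52, adjusted p = 0.00136). Htr2c was the 1 lower gene (-1.25 ± 0.14), and with quantile normalization Cldn1 was a second (-0.36, adjusted p = 0.0454). Chosen after their values were seen, the largest differences were those of the bicarbonate transporter Slc4a5 (2.59 ± 0.38), the potassium channel subunit Kcne2 (2.48 ± 0.36) and the calmodulin-like Calml4 (1.83 ± 0.28), all 3 below the filter limit on all forebrain arrays and so tested only through their cerebellar values.

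**Figure D3:**
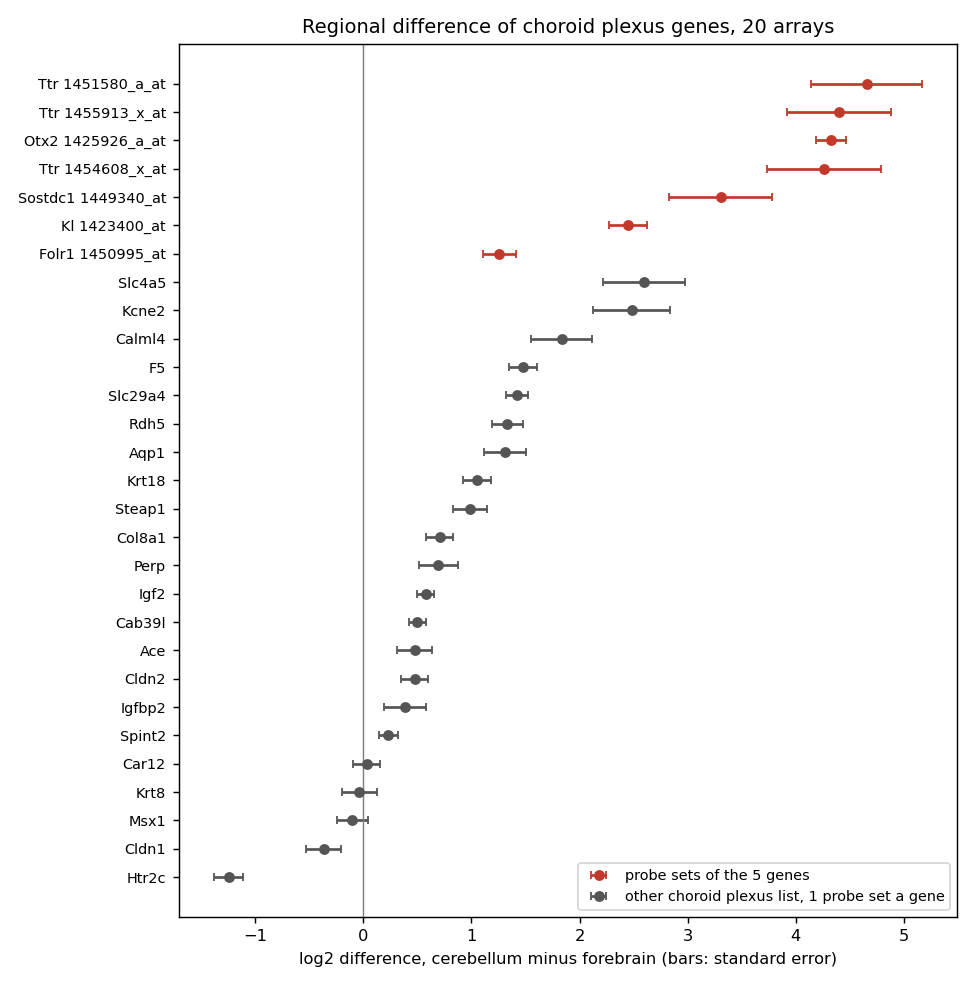
Difference between cerebellum and forebrain (log2 scale, points with standard errors, 20 arrays) for the 7 probe sets of the 5 genes (red) and for 22 other choroid plexus genes (grey). The red points run from 1.26 (Folr1) to 4.66 (Ttr), and the grey from -1.25 (Htr2c) to 2.59 (Slc4a5).

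Lists for other cells that such a block could hold were read in the same comparison, beside the 32.5% of all tested probe sets that were higher and the 27.2% that were lower. Of 5 annotated ependymal genes 2 passed the filter and were tested. Both were higher in cerebellum, Mia by 0.96 and Foxj1 by 0.52. Their summed intensity was 1474 to 2234 in cerebellum and 737 to 1712 in forebrain. All 10 measured oligodendrocyte genes were higher (median 0.87; summed intensity 133061 to 233587 and 82875 to 164821). Of 9 annotated pineal genes 4 were tested, of which 1 was higher and 1 lower, with Aanat and Crx not called. The sums of the tested pineal genes overlapped, at 1484 to 3084 and 1057 to 2831. Of 15 genes of meninges and fibroblasts 4 were higher and 3 lower, and of 12 endothelial genes 0 and 3, shares at or below those over all probe sets. Of 6 thalamic and habenular genes 2 were higher and 4 lower, but their summed intensity was higher in cerebellum, 65230 to 84437 against 19684 to 26069 in forebrain. Calb2, which some cerebellar neurons also make, read 50464 to 68372 of it in cerebellum. No gene of these lists was at 0. Their part in the regional difference was not tested.

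Within forebrain, Ttr differed far more between arrays of one group than any other tested gene of the set except Sostdc1. Its highest array was 2.66, 2.31 and 2.85 times its lowest in cerebellum for 1454608_x_at, 1451580_a_at and 1455913_x_at, and 23.3, 36.3 and 19.6 times in forebrain. The SD of log2 values within groups was 0.36, 0.28 and 0.35 in cerebellum for these 3 probe sets, and 1.82, 1.78 and 1.65 in forebrain. The 3 Ttr probe sets put the same forebrain arrays at the extremes: wild-type 4 weeks replicate 1 was the highest and wild-type 4 weeks replicate 3 the lowest in each, and knock-in 11 weeks replicate 2 was second highest. For Sostdc1 the SD was 0.72 in cerebellum and 1.51 in forebrain. For Folr1, Kl and Otx2 it was 0.29, 0.46 and 0.25 in cerebellum and 0.43, 0.40 and 0.39 in forebrain, so that Kl alone did not spread more in forebrain.

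The 5 genes did not put the forebrain arrays in one order. To set genes side by side, each was taken as a percent of its own mean cerebellar intensity. On wild-type forebrain 4 weeks replicate 1, the array with the most Ttr, Ttr stood at 29.3%, 24.2% and 18.7% by its 3 probe sets, Sostdc1 at 23.1%, Kl at 24.6% and Folr1 at 54.7%, but Otx2 at 3.75%. On knock-in 11 weeks replicate 2, Ttr stood at 18.2%, 13.1% and 14.9%, Sostdc1 at 32.8% and Otx2 at 2.24%. On knock-in 4 weeks replicate 2 Sostdc1 reached 46.0% while Ttr was at 3.49%, 3.84% and 3.10%. On knock-in 4 weeks replicate 3, which the description calls cerebellum, Ttr was at 11.4%, 6.14% and 9.99% and Sostdc1 at 3.78%. Otx2 stayed between 1.92% and 6.06% on all 10 forebrain arrays, with its highest share on wild-type 11 weeks replicate 2, where Ttr was at 2.09%, 1.79% and 2.56%. Kcne2 too was highest on that array, at 49.9%, Slc4a5 on knock-in 4 weeks replicate 3, at 35.3%, and Calml4 on knock-in 11 weeks replicate 2, at 49.9%. Except for most of the Ttr and 6 of the Folr1 values, these forebrain readings lie below the filter limit, where background signal makes up an unknown part. The array with the most Ttr also had the lowest GAPDH ratio of 3′ to 5′ probes, which falls as RNA is better kept (0.744, against 0.804 to 0.890 on the other forebrain arrays), and the highest ratio of actin (1.23); their part was not tested.

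**Figure D4:**
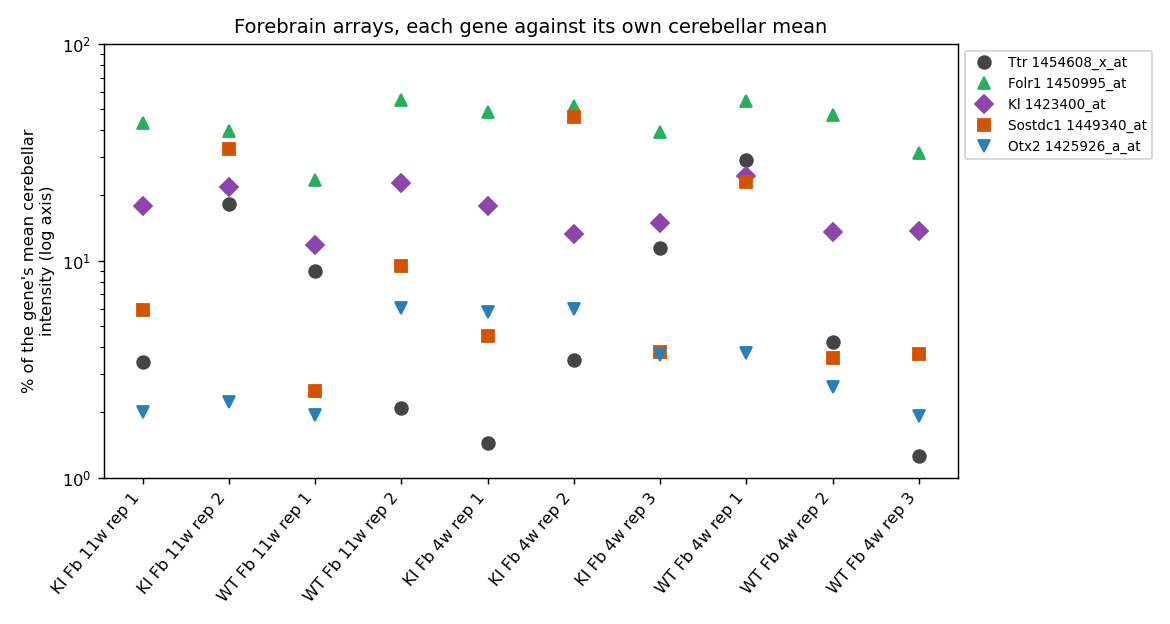
Intensity of 5 genes on each of the 10 forebrain arrays, as a percent of that gene's mean over the 10 cerebellar arrays (log axis; 1 probe set a gene). Ttr runs from 1.26% to 29.3% and Sostdc1 from 2.51% to 46.0%, while Otx2 stays between 1.92% and 6.06%.

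In cerebellum one array stood apart. Knock-in cerebellum 4 weeks replicate 1 was the lowest of the 10 cerebellar arrays for 6 of the 7 tested probe sets, 3 of these of Ttr. Over all tested probe sets it was the lowest for 10.4%. Against the mean of the other 5 cerebellar arrays at 4 weeks it stood at 44.9%, 59.2% and 47.5% for the 3 Ttr probe sets, 24.3% for Sostdc1, 42.8% for Kl and 65.6% for Otx2, and at 88.1% for Folr1. Of the 3 transporter and calmodulin-like genes named above, Slc4a5 stood at 18.5% and Calml4 at 67.5%, both the lowest of 10, and Kcne2 at 87.2%. Its GAPDH and actin 3′/5′ ratios, 0.844 and 1.02, lay within the range of the other arrays. On this array Kl (549), Sostdc1 (268), Otx2 (542), Slc4a5 (134), Calml4 (354) and Kcne2 (570) read below its filter limit of 732.5. There, background signal makes up an unknown part.

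The likeness of each gene to Ttr was measured as the Pearson correlation, over arrays, of log2 values minus the mean of the array's own group, with 1454608_x_at as the Ttr value. It is a description without a test, over arrays that share their groups and perhaps their animals. Over the 20 arrays the other Ttr probe sets had r of 0.99 and 0.97 (Spearman 0.94 and 0.90) and ranked 1 and 2 of 14410 probe sets with a single gene name. Sostdc1 had r = 0.40 (Spearman 0.35), Kl 0.26 (0.25), Folr1 0.0075 (-0.08) and Otx2 -0.0018 (0.05), ranking 1612, 3165, 6789 and 6947. Without the 2 arrays farthest from the median of Ttr, both wild-type forebrain at 4 weeks, they were 0.17, -0.03, -0.46 and -0.39 in the same order.

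Taken by region, likeness differed. Over the 10 cerebellar arrays r was 0.92 for Sostdc1 (Spearman 0.50), 0.77 for Otx2 (0.60), 0.73 for Kl (0.45) and 0.36 for Folr1 (0.14). Leaving out the 2 arrays farthest from the median, knock-in 4 weeks replicates 1 and 2, gave 0.81, 0.19, 0.59 and 0.32 in the same order, so the value for Otx2 rested on those 2 arrays. The other Ttr probe sets, 1455913_x_at and 1451580_a_at, had r of 0.93 and 0.89 in cerebellum (Spearman 0.58 and 0.68). Without those 2 arrays they had 0.55 and 0.83. Over the 10 forebrain arrays r was 0.36 for Sostdc1 (Spearman 0.26), -0.10 for Otx2 (0.03), 0.23 for Kl (0.22) and -0.04 for Folr1 (0.07), and 0.06, -0.65, -0.36 and -0.68 without the 2 farthest arrays. Of the 22 other choroid plexus genes, 13 had r above 0.5 in cerebellum and 5 in forebrain, where 14.0% and 15.4% of all tested probe sets did; the cerebellar values again include knock-in 4 weeks replicate 1.

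The 12 genes outside the set nearest to Ttr over the 20 arrays, at r of 0.81 to 0.93, were Cmtm8, Fahd1, Eif4h, Aldh3b1, Smpx, Pkp3, Tmem189, Prdx4, Cstf1, Ssu72, Eftud2 and Slc30a7. None is on the longer choroid plexus list. Cmtm8 came first (r = 0.93, Spearman 0.87; 0.86 without the 2 farthest arrays) with intensities of 473 to 971. Without the 2 farthest arrays the r of the 12 genes was 0.64 (Ssu72) to 0.86 (Cmtm8). In forebrain alone their r was 0.88 to 0.98, and in cerebellum alone -0.23 to 0.82. The 12 were picked as nearest on these same arrays, so these values are a description.

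Between genotypes no probe set of the set was called in either region, where 3.35% of tested probe sets were called in cerebellum and 13.5% in forebrain. By limma, 0 of the 7 passed, and 0 had an unadjusted p under 0.05 in either region. In cerebellum the largest difference was that of Kl, -0.42 ± 0.25 log2 units in knock-in against wild-type mice (limma adjusted p = 0.344). Kl ran from 549 to 2584 with a median of 1276 in knock-in cerebellum and from 1010.4 to 2925 with a median of 1744 in wild-type cerebellum, so the genotypes overlapped. The Ttr probe sets differed by -0.17 ± 0.75, -0.18 ± 0.73 and -0.29 ± 0.68. These errors carry the wide forebrain spread into cerebellum: with the cerebellar arrays alone in the fit the errors were 0.20, 0.16 and 0.19, and the smallest limma adjusted p of the 3 was 0.418. Sostdc1 (-0.16 ± 0.68), Folr1 (0.07 ± 0.22) and Otx2 (-0.0004 ± 0.19) were not called either. Without knock-in 4 weeks replicate 1 the Sostdc1 difference was 0.18, that of Otx2 0.10 and that of 1454608_x_at 0.01, each on the other side of 0.

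In forebrain Sostdc1 had the largest difference, 0.86 ± 0.68 (limma adjusted p = 0.42), with 47.0 to 571 and a median of 73.4 in knock-in mice and 31.1 to 286 and a median of 45.9 in wild-type mice, all below the filter limit. The Ttr probe sets differed by 0.19 ± 0.75, 0.43 ± 0.73 and 0.22 ± 0.68, and the genotypes overlapped from 1243 to 15753 (knock-in) over 1086 to 25269 (wild type) for 1454608_x_at. Errors of this size leave differences of more than 2-fold either way undetectable for Ttr and Sostdc1. Folr1 (0.15 ± 0.22), Kl (0.06 ± 0.25) and Otx2 (0.07 ± 0.19) were not called, and the last 3 turned below 0 with quantile normalization. By age, 0 of 7 were called in cerebellum at 11 or 4 weeks, where 0.346% and 0.0512% of tested probe sets were, and 0 of 7 in forebrain, where 0.864% and 7.37% were (limma). Of these 28 tests 1 had an unadjusted p under 0.05, Otx2 in forebrain at 4 weeks: it read 50.6, 52.3 and 32.1 in knock-in and 32.6, 22.8 and 16.7 in wild-type mice, overlapping and far below the filter limit (0.61 ± 0.24; limma adjusted p = 0.132). The genotype difference was not called as different between regions, or between ages in either region, for any of the 7 (limma; 0.282%, 0.0256% and 0% of tested probe sets were called). Of these 21 tests 1 had an unadjusted p under 0.05, that of Otx2 between ages in forebrain (-1.08 ± 0.39 at 11 against 4 weeks; limma adjusted p = 0.749), from readings below the filter limit.

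The untested second Sostdc1 probe set, 1460250_at, read 67.9, 103 and 138 in knock-in and 318, 314 and 364 in wild-type cerebellum at 4 weeks, without overlap, and 831 and 261 against 521 and 289 at 11 weeks, with overlap. These arrays lay below the filter limit except the one at 831. The brighter Sostdc1 probe set, 1449340_at, overlapped between genotypes at 4 weeks.

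Of the 22 other choroid plexus genes, 0 were called between genotypes in cerebellum and 4 were higher and 0 lower in knock-in forebrain, which is 4 of 22 beside 8.36% of all tested probe sets called higher (median 0.28, against 0.04 over all). The 4, named after their values were seen, were the tight junction genes Cldn2 (0.88 ± 0.17; limma adjusted p = 0.00637) and Cldn1 (0.83 ± 0.23; limma adjusted p = 0.0299, and 0.081 with cyclic loess), Slc29a4 (0.66 ± 0.14) and Spint2 (0.54 ± 0.12). Both tested ependymal genes were higher in knock-in forebrain too, Mia by 0.79 ± 0.21 and Foxj1 by 0.66 ± 0.18 (limma adjusted p = 0.0231 and 0.0296). With quantile normalization the limma adjusted p was 0.0802 and 0.0563. The summed intensity of both was 1111 to 1267 in knock-in against 754 to 848 in wild-type forebrain at 11 weeks. At 4 weeks it was 1287 to 1712 against 737 to 931. The part of both genes in the values of the choroid plexus genes was not tested. These counts were taken under the deposited scaling. Median intensity was 1073 to 1117 on knock-in and 979 to 1059 on wild-type forebrain arrays. With quantile normalization 4 of the 22 genes were higher beside 5.27% of all tested probe sets, with a median of 0.16. With cyclic loess 3 were, beside 4.42%, with a median of 0.12. Under both normalizations neither ependymal gene was called. The part of the array medians was not tested.

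Between ages, Kl 1423400_at rose in cerebellum and no other probe set of the set was called. Kl read 1833 to 2925 on the 4 cerebellar arrays at 11 weeks and 549 to 1744 on the 6 at 4 weeks, without overlap. The difference was 1.09 ± 0.25 log2 units, 2.14-fold (limma adjusted p = 0.0379), where 0.474% of tested probe sets were higher and 1.27% lower at 11 weeks. By size it ranked 15 of 15627. The call was lost without any of 10 of the 20 arrays, 7 of them cerebellar, with the adjusted p then 0.0503 to 0.165 and the smallest difference, 0.93, came without the first 4-week knock-in replicate. It was also lost with the cerebellar arrays alone (adjusted p = 0.0911), without the filter (0.078) and with the replicate number as a block (0.233). Knock-in mice had a fitted difference of 1.30 ± 0.35 and wild-type mice one of 0.89 ± 0.35, neither called singly (limma adjusted p = 0.133 and 0.416, where 0.096% and 0.0448% of tested probe sets were higher). The untested second Kl probe set, 1451892_at, showed no such rise. In cerebellum it read 28.5 and 26.7 in knock-in and 22.2 and 135 in wild-type mice at 11 weeks. At 4 weeks it read 35.3 to 75.5. All these values lay below the filter limit.

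The other tested probe sets were all above 0 in cerebellum at 11 against 4 weeks, from 0.32 ± 0.75 for Ttr 1454608_x_at to 0.91 ± 0.68 for Sostdc1. The median was 0.50 over the 7, which count Ttr by each of its probe sets, against -0.01 over all tested probe sets. Without knock-in 4 weeks replicate 1 the difference was 0.14 for Ttr 1454608_x_at and 0.57 for Sostdc1. Folr1 (0.58 ± 0.22; limma adjusted p = 0.203) read 1554 to 2558 at 11 weeks and 1077 to 1741 at 4 weeks, with overlap. Ttr 1451580_a_at read 83492 to 102031 at 11 weeks and 44156 to 81635 at 4 weeks, without overlap. Its difference was 0.39 ± 0.73 (limma adjusted p = 0.852, and 0.39 ± 0.16 with adjusted p = 0.274 with the cerebellar arrays alone). Ttr 1455913_x_at read 46904 to 55000.2 against 19281 to 45021, also without overlap (0.50 ± 0.68; limma adjusted p = 0.787). For Ttr 1454608_x_at the ages overlapped. Otx2 differed by 0.37 ± 0.19. Of the 22 other choroid plexus genes 1 was higher, the keratin Krt18 (0.79 ± 0.18; limma adjusted p = 0.0385, and 0.0719 without knock-in 4 weeks replicate 1), and 0 were lower, with a median of 0.40 over the 22, or 0.27 without that array.

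Other lists were read by age in cerebellum, where 0.474% of all tested probe sets were higher and 1.27% lower at 11 weeks. Of 10 oligodendrocyte genes 5 were lower at 11 weeks, with a median of -0.67. Their summed intensity was 133061 to 151763 at 11 weeks against 179530 to 233587 at 4 weeks. Of the 15 meningeal and fibroblast genes 2 were lower, the collagen genes Col1a1 and Col3a1 (-2.08 ± 0.40 and -1.77 ± 0.19). The other 13 were not called, and the median of this list was 0.09, against -0.01 over all tested probe sets. In forebrain 1 oligodendrocyte gene was lower (list median -0.51) and 2 meningeal and fibroblast genes were (list median 0.02), beside 0.096% of all tested probe sets. None of the 6 measured Purkinje cell genes was called, with a median of -0.0072. The part of these in the Kl difference was not tested.

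In forebrain 0 of the 7 probe sets were called between ages (limma; 0 at an unadjusted p under 0.05), where 15 of 15627 probe sets were called at all, 0.096%. Differences at 11 against 4 weeks ran from -0.27 ± 0.19 for Otx2 to 0.50 ± 0.68 for Ttr 1455913_x_at. The age difference in cerebellum minus that in forebrain was 0.92 ± 0.35 for Kl, 0.79 ± 0.31 for Folr1 and 0.64 ± 0.27 for Otx2, each with an unadjusted p under 0.05 but none called (limma adjusted p = 0.692, 0.711 and 0.758; 0.0512% of tested probe sets were called).

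**Figure D5:**
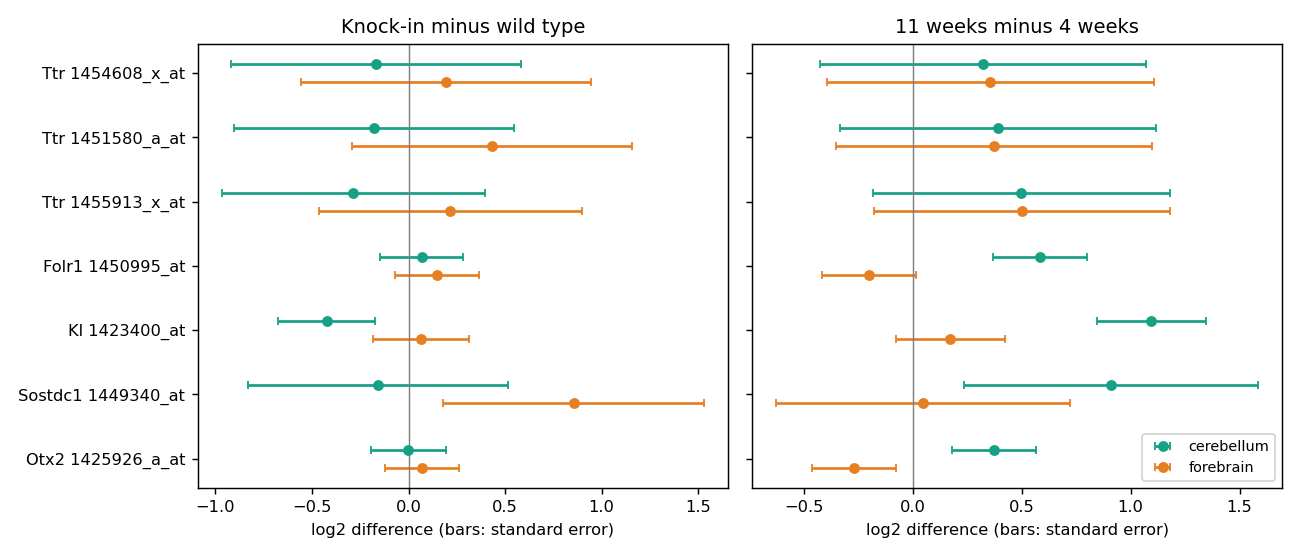
Differences between genotypes (left) and ages (right) for the 7 probe sets in cerebellum and forebrain (log2 scale, points with standard errors, means over the other factor). Of the 28 differences the one called is that of Kl in cerebellum, 1.09 ± 0.25 at 11 against 4 weeks.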

How the data were processed

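The authors deposited 1 linear intensity for each probe set and array, scaled to a common mean: the 2% trimmed mean was 2500.59 to 2500.75 on every array. Software and probe summary: not given in the sources used here. Of 22690 probe sets, 64 were array controls and 20380 others carried a single gene name in the annotation used. Values were taken as log2(intensity + 16), which understates the change of dim genes. Probe sets above the 40th percentile of an array on at least 2 arrays were kept (15627). Group means of all 20 arrays were fitted together in limma 3.58.1 (lmFit, eBayes; 12 residual and 3.45 prior degrees of freedom) in R 4.3.3, with two-sided tests, Benjamini-Hochberg adjusted over all kept probe sets, and a call at an adjusted p under 0.05. Errors are standard errors of the model, which pools the spread of both regions. Means over ages or genotypes weight each group equally. "At least" folds raise the dimmer values to the filter limit. List genes were read by their kept probe set of highest mean. Arrays have no read depth, and their number limits the precision. All probe sets of the members are named, with the 12 genes nearest to Ttr and the 6 list genes of highest mean. The members and the 10 gene lists were chosen with earlier results of these data known. The fit was tested on simulated data. No batch is named in the labels.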

Additional observations from a re-analysis of the deposited data

How the results depend on the processing

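The 7 tested probe sets were called higher in cerebellum under each other offset, normalization and block and without any 1 array. Without the filter 8 of 9 were, and with 1 probe set a gene 5 of 5. In all but the fit without the filter, Kl, Sostdc1 and Otx2 entered only through cerebellum, so the repeated counts are a description. The call of Kl at 11 against 4 weeks in cerebellum changed: the count was 0 without the filter, with the cerebellar arrays alone and with the replicate block, and 0 to 1 without 1 array; the cause was not tested, though the filter and the single region change the number of tests and arrays. No correlation of same-numbered arrays between genotypes passed 0.1 (-0.10 to 0.05), and between regions 1 of 10 did (0.11). With 2 arrays per group at 11 weeks, both replicate numbers give the same value by construction. Whether the numbers pair the samples cannot be told from these correlations. The other results that crossed 0 were not called before or after. With an offset of 64 Otx2 was 0.0014 between genotypes in cerebellum. In forebrain, quantile normalization gave Kl -0.14, Otx2 -0.084 and Folr1 -0.029 between genotypes, and cyclic loess Kl -0.14 and Otx2 -0.34; in cerebellum cyclic loess gave Folr1 -0.036. The replicate block gave Sostdc1 -0.19 and Ttr 1451580_a_at -0.0027 between ages in forebrain. Without both arrays that stand apart, chosen after seeing the data, Otx2 was 0.095, Sostdc1 0.18 and Ttr 1454608_x_at 0.012 between genotypes in cerebellum. Ranges without 1 array, between genotypes in cerebellum, were -0.084 to 0.095 for Otx2, -0.40 to 0.18 for Sostdc1, -0.11 to 0.25 for Folr1 and -0.26 to 0.012 for Ttr 1454608_x_at. In forebrain they were -0.16 to 0.29 for Kl, -0.20 to 0.34 for Otx2, -0.15 to 0.44 for Folr1, and -0.17 to 1.12, -0.41 to 0.80 and -0.36 to 0.79 for Ttr 1451580_a_at, 1454608_x_at and 1455913_x_at. Between ages in forebrain they were -0.053 to 0.40 for Kl, -0.51 to 0.61 for Sostdc1, -0.50 to 0.095 for Folr1, and -0.23 to 1.06, -0.25 to 0.96 and -0.078 to 1.08 for the same Ttr probe sets.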
